A study of Mus musculus with 13 samples.

Results

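The keratin gene family was followed in murine tail lymphedema tissue in the TNTProx1 and TNTSham groups. Members were all genes whose mouse symbol is Krt, a number and at most 1 letter, with keratin-associated protein genes and pseudogenes left out. The rule found 53 members among the 55357 genes of the deposited count table, and Krt74 was left out because it is annotated as a pseudogene. The 28 acidic (type I) and 25 basic (type II) members lie in a cluster of 27 genes on mouse chromosome 11 and a cluster of 26 genes on chromosome 15, with the type I gene Krt18 inside the chromosome 15 cluster. Of the 53 members, 51 had enough counts to be tested. Krt13 had 1 to 7 counts per library and Krt88 had 0 to 1, so neither was tested.

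Total RNA was sequenced after ribosomal RNA depletion in 6 samples of the TNTProx1 group and 7 samples of the TNTSham group. The labels give both groups as tail tissue at day 28 after TNT, from mice aged 12 weeks, and do not spell out TNT or name the strain, the sex or the agent given to the TNTSham group. They do not say that the libraries came from separate animals, so p-values measure only the spread between these samples. Replicate numbers only name the libraries.

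Keratins are the intermediate filament proteins of epithelial cells. Each filament is built from pairs of 1 type I and 1 type II chain, and keratinocytes switch pairs as they differentiate. Cells of the basal layer make Krt5 and Krt14, cells above it switch to Krt1 and Krt10, and cells at a wound edge or under stress add Krt6a, Krt6b, Krt16 and Krt17. The inner root sheath, which moulds the growing hair, and the hair shaft itself have keratins of their own. Tail skin of the mouse carries rows of scales between its hair follicles, and Krt36, a keratin of the hair type, is known as a marker of the differentiated cells of those scales.

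The stretch just upstream of the start site is printed for 6 members of the inner root sheath and hair shaft classes. Most keratins of these classes shared their highest and lowest libraries. Krt36 and Krt84 shared the highest ones, TNTSham 2 and TNTProx1 5, but were lowest in TNTSham 5 and TNTProx1 2. Each line gives the 150 bases before the annotated start, 5′ to 3′ on the gene's own strand, with the letters TATAAA in capitals. The sequences are RefSeq's, build GRCm38.p6, whereas the counts were made on GRCm39.
Krt25 (chr11:99322952-99323101, minus strand): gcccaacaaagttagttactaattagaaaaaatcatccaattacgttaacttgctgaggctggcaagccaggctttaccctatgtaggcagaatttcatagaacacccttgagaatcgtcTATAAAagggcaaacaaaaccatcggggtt
Krt71 (chr15:101743098-101743247, minus strand): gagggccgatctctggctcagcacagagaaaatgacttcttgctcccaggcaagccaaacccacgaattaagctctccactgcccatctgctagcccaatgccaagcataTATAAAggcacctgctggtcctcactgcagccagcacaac
Krt31 (chr11:100050552-100050701, minus strand): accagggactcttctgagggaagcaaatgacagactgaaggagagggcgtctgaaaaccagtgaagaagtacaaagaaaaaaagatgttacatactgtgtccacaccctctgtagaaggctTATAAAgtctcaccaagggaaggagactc
Krt34 (chr11:100041555-100041704, minus strand): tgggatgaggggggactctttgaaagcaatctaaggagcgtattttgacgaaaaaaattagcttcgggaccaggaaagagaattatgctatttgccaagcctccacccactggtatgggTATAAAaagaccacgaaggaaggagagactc
Krt36 (chr11:100105627-100105776, minus strand): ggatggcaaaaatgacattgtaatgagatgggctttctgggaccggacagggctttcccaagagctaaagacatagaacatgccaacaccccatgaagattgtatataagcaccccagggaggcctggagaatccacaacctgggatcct
Krt84 (chr15:101532821-101532970, minus strand): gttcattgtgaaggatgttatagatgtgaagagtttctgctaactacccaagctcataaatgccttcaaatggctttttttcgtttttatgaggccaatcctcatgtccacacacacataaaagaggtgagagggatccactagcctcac

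TATAAA lay 30 bases upstream of the start of Krt25, 40 upstream of Krt71, 29 upstream of Krt31 and 31 upstream of Krt34, counted from its first base. Krt36 and Krt84 had no TATAAA on the gene strand in these 150 bases. RefSeq promoter entries were found for 36 of the 53 keratins, giving 37 windows because Krt13 has 2 entries. In the 250 bases upstream, read on both strands, TATAAA occurred in 45.9% of the keratin windows and in 12.4% of all 32851 windows. It occurred in 7 of 7 inner root sheath, 6 of 9 hair shaft, 2 of 10 regional and other, 1 of 5 simple epithelial, 1 of 4 suprabasal and 0 of 2 basal windows. The 6 hair shaft windows include that of Krt84, by a match on the other strand, while those of Krt36, Krt39 and Krt82 had none. Searched the same way, the CK 8-mer AANCCAAA occurred in 18.9% of keratin windows against 4.98% of all windows. The LEF/TCF core CTTTGA occurred in 24.3% against 13.8%, and the AP-1 site TGANTCA in 5.41% against 6.75%. None of these 4 motifs contains another, a match is a description and not a site, and no match says only that the letters are not in the window.

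The libraries held 29691929 to 48007392 counts assigned to genes. Levels are given as CPM, the count of a gene scaled to a library of fixed size, and a log2 fold change is TNTProx1 over TNTSham. Prox1 itself, the gene the TNTProx1 group is named for, lay between 18.7 and 72.9 CPM in TNTProx1 and between 23.4 and 33.1 CPM in TNTSham. Only TNTProx1 1 (42.8 CPM) and TNTProx1 2 (72.9 CPM) lay above the TNTSham range, and TNTProx1 4 (18.7 CPM) lay below it. TNTProx1 4, 5 and 6 stood apart from the other 10 libraries. TEC genes, an annotation class of loci that still await experimental evidence, took 0.136 to 0.193% of counts there, against 0.378 to 0.745% in the other 10, and Malat1, a nuclear RNA, lay at 3410 to 3539 CPM against 8979 to 16810 CPM. Fitted changes of the keratins are therefore given with all libraries and without these 3. Krt5, Krt14, Krt1 and Krt10, which define epidermis, were at 479 CPM or more in every library, so skin was present in all 13.

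Keratins took 1.16 to 7.06% of all counts in TNTProx1 (4.44% ± 2.12, SD, n = 6) and 4.50 to 6.39% in TNTSham (5.22% ± 0.80, SD, n = 7). The mean was lower in TNTProx1, by less than the spread between its own libraries. A few members carried most of the signal, with 46.2% of keratin counts on Krt10 and Krt1 and 92.8% on the 10 members of highest CPM. Of the 53 members, 10 averaged at least 1000 CPM, 36 at least 10 CPM and 47 at least 1 CPM. Per kilobase of transcript, the order over all 13 libraries was Krt10 at 6041, Krt1 at 4114, Krt36 at 1773, Krt84 at 1760, Krt14 at 1706, Krt16 at 1403 and Krt5 at 1189 CPM per kb. Krt10 was above Krt1, and Krt1 above Krt36, in 13 of 13 libraries. The neighbours after Krt36 changed places between libraries, and each difference between them was smaller than its own SD over the 13 libraries. Because the samples are whole tissue, fewer keratinocytes and less keratin RNA per keratinocyte cannot be told apart in any of these values.

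**Figure D1:**
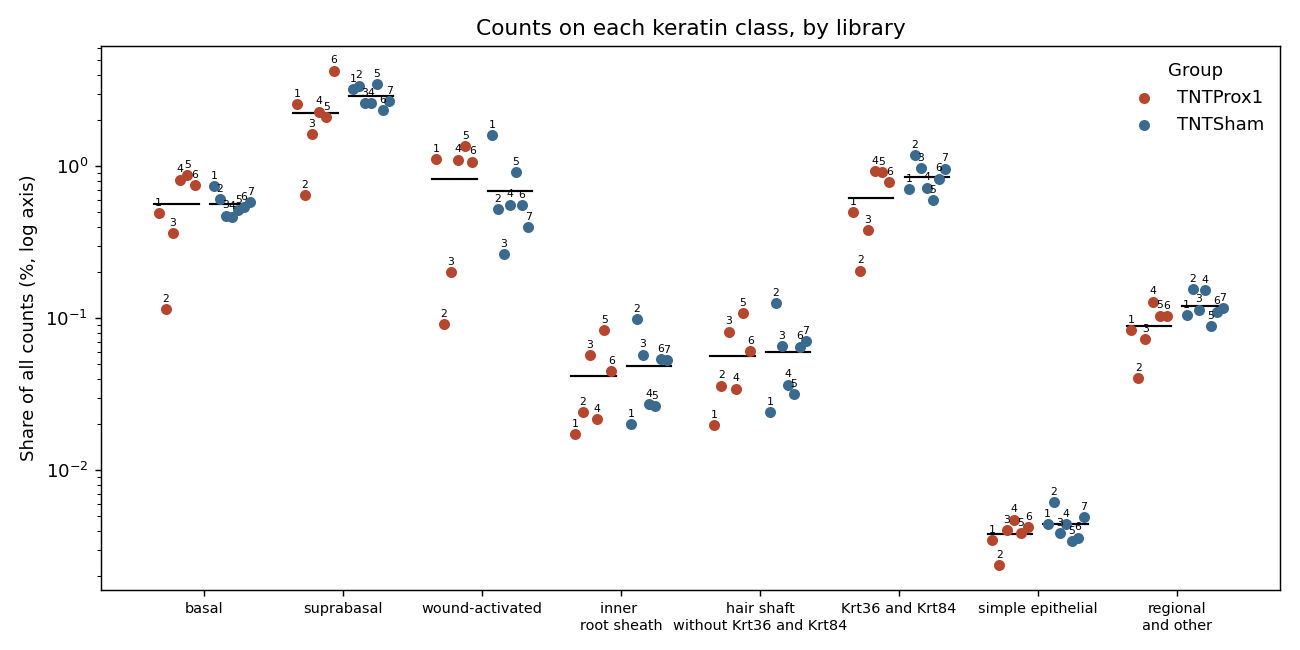
Percent of all assigned counts on each keratin class in every library, TNTProx1 left of TNTSham on a log axis, with each point 1 numbered library and the line the group mean; hair shaft keratins are split into Krt36 and Krt84 and the other 13. The TNTProx1 points spread more widely than the TNTSham points for basal (0.115 to 0.872% against 0.465 to 0.740%) and suprabasal keratins (0.644 to 4.24% against 2.35 to 3.45%).

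No keratin passed the test between TNTProx1 and TNTSham. With edgeR's quasi-likelihood test and Benjamini-Hochberg adjustment over all 22876 genes tested, 0 keratins and 0 genes were called at an adjusted p under 0.05, a background of 0%. At an unadjusted p under 0.05 there were 4 keratins among 51, against 12.2% of all genes. Of these, 1 was higher in TNTProx1 (Krt18; 8.33% of all genes had such a p on the higher side) and 3 were lower (Krt77, Krt79 and Krt2; 3.92% of all genes did on the lower side). DESeq2 called 616 genes, 3.42% of those with an adjusted p, and 0 keratins, with 0.0587 for Krt77 as the smallest adjusted p it gave a keratin and none given for Krt12, Krt18, Krt20 and Krt222. In all 51 members the TNTProx1 and TNTSham ranges overlapped, while the groups did not overlap for 0.398% of all genes on the higher side and 0.214% on the lower side. Fitted log2 fold changes were above 0 for 21 keratins and below 0 for 30, 58.8% of the members against 52.3% of all genes, with a median of -0.19 against -0.02 for all genes.

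That split depended on single libraries and on the fit. With TNTProx1 4, 5 and 6 left out, 47 of 51 keratins were lower in the remaining 3 TNTProx1 libraries than in TNTSham. The median log2 fold change was -0.62, against -0.0012 for all genes. In that fit 15 keratins had an unadjusted p under 0.05, all lower, against 21.4% of all genes in either direction. There edgeR called 0 keratins and 0 genes. Without TNTSham 2 the split turned, with 30 keratins above 0 and 21 below. limma's voom with quality weights called 2 keratins lower, Krt84 with a log2 fold change of -1.06 (adjusted p = 0.0457) and Krt36 with -1.08 (adjusted p = 0.0483), where 2.5% of all genes were called. It gave 12 keratins an unadjusted p under 0.05, all lower, against 19.7% of all genes in either direction. With the TEC share as a covariate edgeR called 3 keratins lower, Krt84, Krt36 and Krt77, where 2.38% of all genes were called. In that fit 15 keratins had an unadjusted p under 0.05, all lower, against 18.6% of all genes in either direction.

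**Figure D2:**
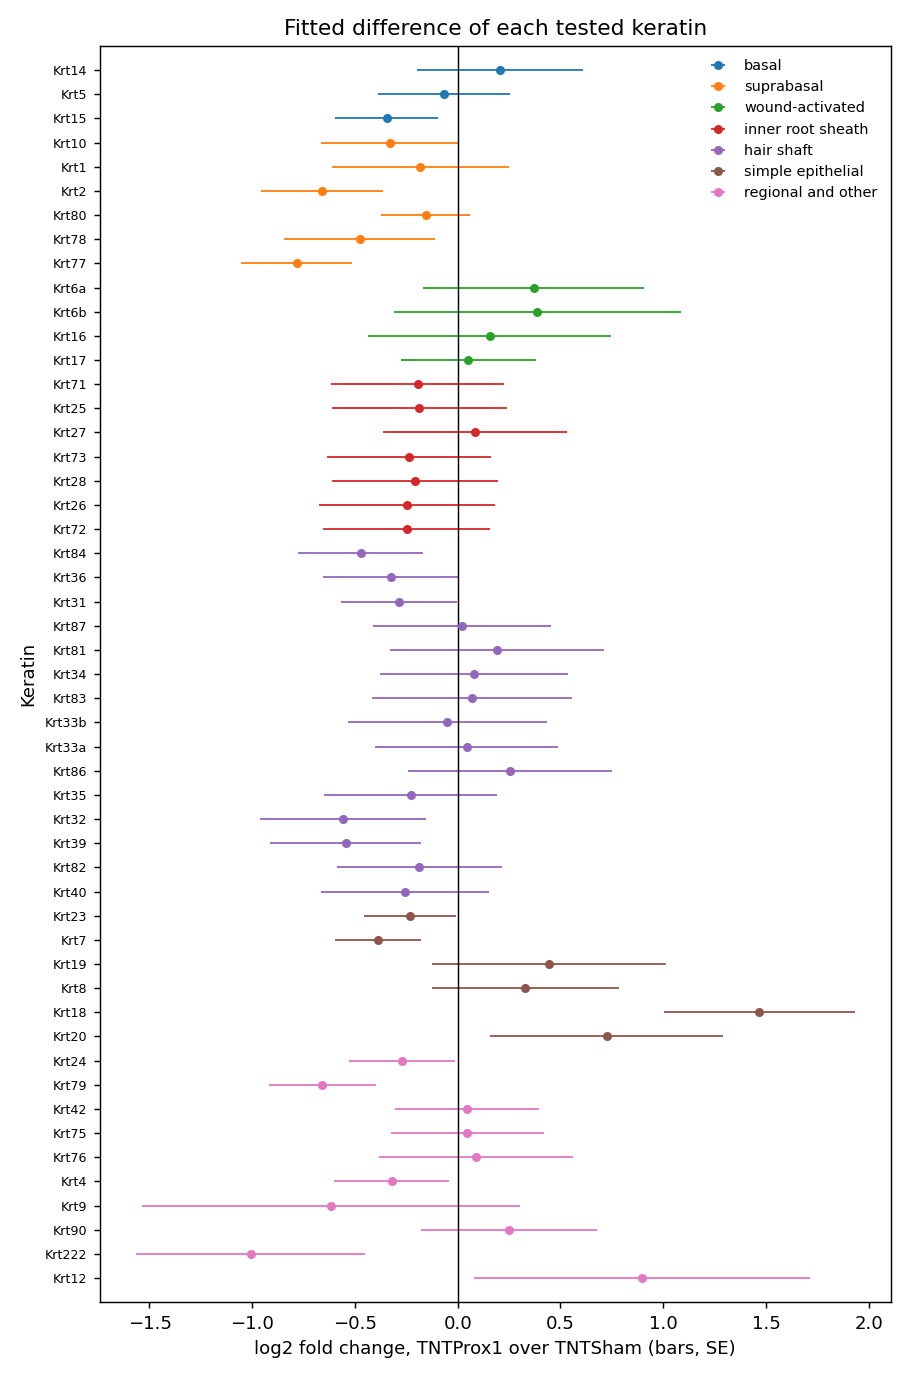
Log2 fold change of each tested keratin, TNTProx1 over TNTSham, in rows by class, with points the edgeR estimate and bars its SE. The 6 suprabasal members lie below 0 and the 4 wound-activated members above 0, with bars that cross 0 for all 4, and Krt18 lies highest at 1.47. All 4 wound-activated members turned below 0 when TNTProx1 4, 5 and 6, plotted here with the rest, were left out.

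None of the 3 basal keratins passed the test, and for Krt5 and Krt14 the TNTProx1 libraries lay on both sides of TNTSham. Krt5, the type II chain of the basal layer, had a lowest, median and highest value of 508, 2752 and 3710 CPM in TNTProx1, against 2282, 2532 and 3138 CPM in TNTSham. TNTProx1 4, 5 and 6 lay above every TNTSham library and TNTProx1 1, 2 and 3 below every one, so the ranges overlapped only because TNTProx1 enclosed TNTSham. Its fitted log2 change was -0.07 ± 0.32 (SE; adjusted p = 0.949, edgeR), and -0.77 with TNTProx1 4, 5 and 6 left out. Krt14, its type I partner, had 479, 3480 and 5198 CPM in TNTProx1, against 1995, 2623 and 4449 CPM in TNTSham. TNTProx1 4, 5 and 6 were again above the highest TNTSham library, and TNTProx1 2 and 3 below the lowest. Krt14 had a fitted log2 change of 0.21 ± 0.40 (SE; adjusted p = 0.861, edgeR), which turned to -0.84 without TNTProx1 4, 5 and 6. Krt15, a type I keratin known for the hair follicle bulge, had 49.96, 184 and 220 CPM in TNTProx1, against 166, 196 and 254 CPM in TNTSham. Here no TNTProx1 library passed the highest TNTSham value, and the log2 fold change was -0.34 ± 0.25 (SE; adjusted p = 0.623, edgeR), and -0.63 without TNTProx1 4, 5 and 6.

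The proportion of the basal pair differed among libraries of both groups. Per kilobase, Krt5 was 0.530 to 0.986 of Krt14 in TNTProx1, lowest in TNTProx1 5, and 0.544 to 0.927 in TNTSham, lowest in TNTSham 1. Krt14 shares 24.7% of the 36-base words of its main transcript with other genes, most of them with Krt16, and the sources used here do not give how reads that fit several genes were counted.

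All 6 suprabasal keratins had fitted log2 fold changes below 0, with a median of -0.40, and none passed the test. Krt10, the type I chain of the spinous layers and the most abundant keratin, had 2681, 10580 and 23190 CPM in TNTProx1, against 11530, 12990 and 16500 CPM in TNTSham. TNTProx1 6 was the highest of all 13 libraries, and the other 5 TNTProx1 libraries lay below every TNTSham library. The fitted log2 change was -0.33 ± 0.33 (SE; adjusted p = 0.722, edgeR), and -0.94 without TNTProx1 4, 5 and 6. Krt1, the type II partner, had 1418, 8432 and 21160 CPM in TNTProx1, against 7255, 10250 and 16500 CPM in TNTSham. Only TNTProx1 2 and 3 lay below the TNTSham range, and only TNTProx1 6 above it. Krt1 had a fitted log2 change of -0.18 ± 0.43 (SE; adjusted p = 0.887, edgeR), which turned to 0.05 when TNTProx1 2 was left out and was -0.79 without TNTProx1 4, 5 and 6.

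Krt2, a type II keratin that joins Krt10 in the upper spinous and granular layers, had 1509, 2126 and 3837 CPM in TNTProx1, against 1778, 3343 and 5285 CPM in TNTSham. TNTProx1 1, 2 and 5 lay below every TNTSham library and none lay above. As a log2 fold change this was -0.66 ± 0.30 (SE; unadjusted p = 0.0423, edgeR adjusted p = 0.39). Krt77, a scarce type II keratin, had 0.823, 2.21 and 3.20 CPM in TNTProx1, against 2.89, 3.52 and 5.58 CPM in TNTSham. All TNTProx1 libraries but TNTProx1 6 lay below the TNTSham range. Krt77 had a fitted log2 change of -0.78 ± 0.27 (SE; unadjusted p = 0.0114, edgeR adjusted p = 0.248), and the alternatives gave adjusted p-values between 0.0395 and 0.483. Krt78 and Krt80, both type II, had log2 fold changes of -0.48 and -0.16. Without TNTProx1 4, 5 and 6 the fitted changes were -0.70 for Krt2, -1.16 for Krt77, -0.82 for Krt78 and -0.70 for Krt80.

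Krt2 did not keep step with the other suprabasal members within either group. Per kilobase, Krt2 was 0.113 to 0.999 of Krt1 in TNTProx1 and 0.101 to 0.684 of Krt1 in TNTSham. The ratio was highest in TNTProx1 2 and TNTSham 3 and lowest in TNTProx1 1 and TNTSham 5. Krt1 over Krt10 varied less, from 0.451 to 0.980 in TNTProx1 and from 0.477 to 0.853 in TNTSham. The summed suprabasal keratins were 2.40 to 5.69 times the summed basal keratins in TNTProx1 and 4.32 to 6.71 times in TNTSham, with TNTProx1 4 and 5 below every other library.

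**Figure D3:**
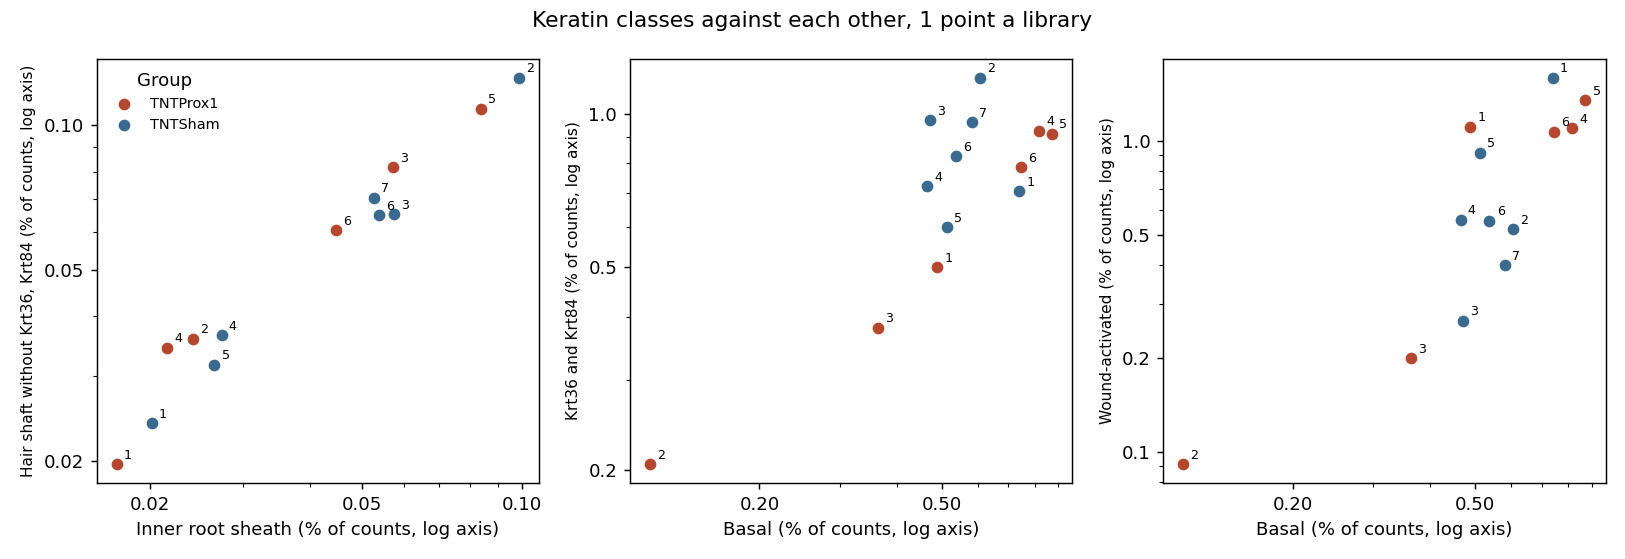
Percent of counts on keratin classes set against each other in 3 panels on log axes, each point 1 numbered library of TNTProx1 or TNTSham. Inner root sheath keratins and the 13 hair shaft keratins other than Krt36 and Krt84 lie along 1 line in both groups (left). Krt36 with Krt84 (middle) were 1.02 to 1.78 times the basal keratins in TNTProx1 and 0.954 to 2.06 times in TNTSham. Wound-activated keratins (right) scatter more widely, at 0.553 to 2.28 times the basal keratins in TNTProx1 and 0.560 to 2.16 times in TNTSham. TNTProx1 2 is lowest in the middle and right panels.

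By the fold from the lowest to the highest library, Krt6a, Krt6b and Krt16 spanned more within both groups than any basal or suprabasal keratin, by little in TNTProx1, where Krt6a spanned 15.2-fold and Krt1 14.9-fold. All 4 wound-activated members, Krt17 included, had fitted log2 fold changes above 0, with a median of 0.26, which turned to -0.58 with TNTProx1 4, 5 and 6 left out, -0.35 with the TEC share as a covariate, -0.88 under limma's voom with quality weights and -0.06 under limma's trend. Krt6a, a type II keratin induced at wound edges, had 291, 3624 and 4424 CPM in TNTProx1, against 803, 1667 and 4811 CPM in TNTSham. TNTProx1 2 and 3 lay below every TNTSham library, and TNTProx1 1, 4, 5 and 6 above all TNTSham libraries but TNTSham 1. On the log2 scale it differed by 0.37 ± 0.54 (SE; adjusted p = 0.808, edgeR). Krt6b, its close paralog, had 155, 3515 and 4398 CPM in TNTProx1, against 548, 1187 and 5776 CPM in TNTSham. The same libraries lay below and above as for Krt6a, and the fitted log2 change was 0.39 ± 0.70 (SE; adjusted p = 0.848, edgeR).

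Krt16, the type I chain that pairs with them, had 205, 2835 and 3896 CPM in TNTProx1, against 799, 1619 and 5136 CPM in TNTSham. TNTSham 1 was the highest of all 13 libraries and TNTProx1 2 the lowest. Krt16 had a fitted log2 change of 0.16 ± 0.59 (SE; adjusted p = 0.934, edgeR). Krt17, a type I keratin of stressed epidermis and of hair follicles, had 173, 787 and 1152 CPM in TNTProx1, against 483, 690 and 1080 CPM in TNTSham. Its spread was smaller than that of the other 3, at 6.67-fold from lowest to highest in TNTProx1 and 2.24-fold in TNTSham, where Krt6b spanned 28.3-fold and 10.5-fold. Krt17 had a fitted log2 change of 0.05 ± 0.33 (SE; adjusted p = 0.962, edgeR). All 4 turned without TNTProx1 4, 5 and 6, to -0.41 for Krt6a, -0.48 for Krt6b, -0.86 for Krt16 and -0.68 for Krt17.

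The same libraries were at the ends of the range for all 4 wound-activated members. TNTProx1 5 was the highest and TNTProx1 2 the lowest TNTProx1 library for 4 of 4, while TNTSham 1 was the highest and TNTSham 3 the lowest TNTSham library for 4 of 4. Summed wound-activated keratins were 0.553 to 2.28 times the basal sum in TNTProx1 and 0.560 to 2.16 times in TNTSham, so both groups covered nearly the same span. Krt6a and Krt6b share 53.5% and 54.9% of their 36-base words with other genes, mostly with each other. Krt16 shares 47.5%, with Gm11597 holding the largest part. The split of reads among these genes is therefore uncertain.

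Krt36 and Krt84 stood far above the rest of the hair shaft class and matched each other. Krt36, the tail scale marker, is type I, and Krt84, a hair-type keratin also known from the filiform papillae of the tongue, is type II. Per kilobase they averaged 1773 and 1760 CPM over all libraries, while the other 13 hair shaft keratins lay between 2.89 and 60.1 CPM per kb. Krt84 over Krt36 per kilobase was 0.862 to 1.13 in TNTProx1 and 0.939 to 1.10 in TNTSham, although both genes ranged over several fold. They share almost no sequence with other genes, with 1.28% of 36-base words for Krt36 and 0.158% for Krt84.

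Krt84 had 1142, 4084 and 5349 CPM in TNTProx1, against 3785, 4747 and 7256 CPM in TNTSham. TNTProx1 1, 2 and 3 lay below every TNTSham library, and TNTProx1 4, 5 and 6 inside the TNTSham range. Its fitted log2 change was -0.47 ± 0.30 (SE; adjusted p = 0.569, edgeR), and -1.23 with TNTProx1 4, 5 and 6 left out (adjusted p = 0.0696). Krt36 had 707, 2828 and 4033 CPM in TNTProx1, against 2364, 3286 and 4413 CPM in TNTSham. The 3 libraries below the TNTSham range were the same as for Krt84. Krt36 had a fitted log2 change of -0.32 ± 0.33 (SE; adjusted p = 0.725, edgeR), and -1.26 without TNTProx1 4, 5 and 6 (adjusted p = 0.0694). Over all alternatives the adjusted p lay between 0.0322 and 0.737 for Krt84 and between 0.0399 and 0.842 for Krt36, with every fitted change below 0. The share of counts on TEC genes moved with this split of the libraries, and its part in the values was not tested beyond the fit with that share as a covariate.

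**Figure D4:**
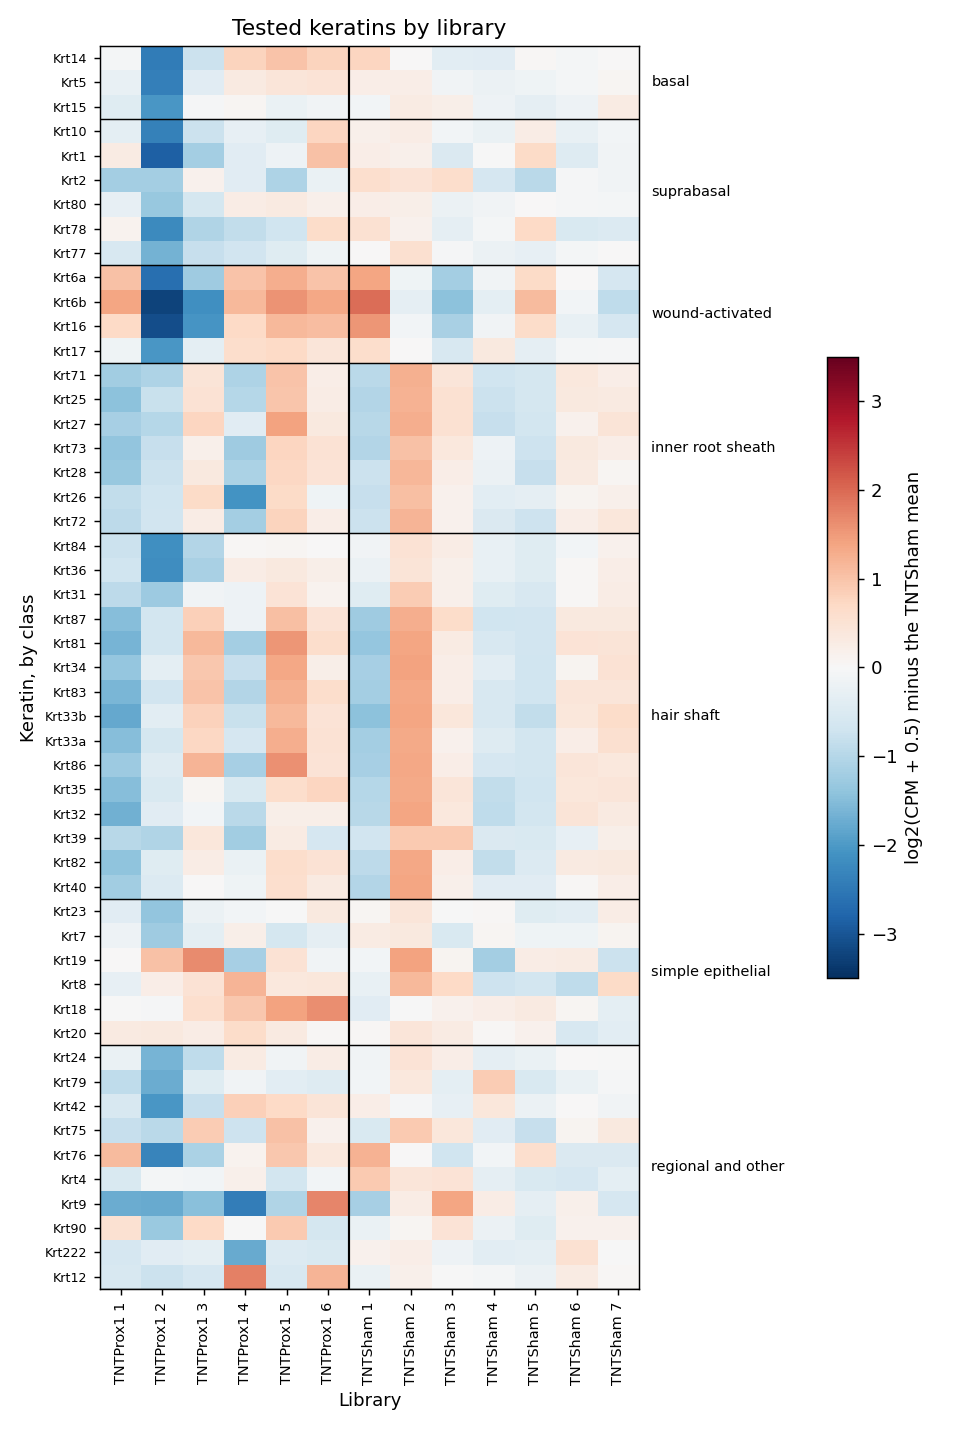
Each keratin's log2 level in each library relative to its own TNTSham mean, with 0.5 CPM added before the log, TNTProx1 columns left of TNTSham columns, members in rows by class. TNTProx1 2 is low across basal, suprabasal and wound-activated members, and TNTSham 2 and TNTProx1 5 are high across inner root sheath and hair shaft members.

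The other 13 hair shaft keratins and the 7 inner root sheath keratins formed a block of their own. Krt31, a type I keratin of the hair cortex and the most abundant of the 13, had 40.1, 88.4 and 136 CPM in TNTProx1, against 66.8, 102 and 182 CPM in TNTSham. Unlike most of the 13, it was lowest in TNTSham 5 and TNTProx1 2, as Krt36 and Krt84 were. TNTProx1 1 and 2 lay below the TNTSham range and none lay above it, with a fitted log2 change of -0.29 ± 0.28 (SE; adjusted p = 0.718, edgeR), and -0.78 without TNTProx1 4, 5 and 6. Across the 13, 6 fitted log2 fold changes were above 0 and 7 below, between -0.56 for Krt32 and 0.25 for Krt86. All 13 were below 0 without TNTProx1 4, 5 and 6, with -0.83 for Krt32 and -0.02 for Krt86. Krt81, Krt86, Krt87, Krt34, Krt33a, Krt33b, Krt31 and Krt83 share 31.6 to 49.4% of their 36-base words with other genes, so their separate levels are uncertain.

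Krt71, a type II keratin of the inner root sheath, had 86.6, 167 and 406 CPM in TNTProx1, against 104, 238 and 475 CPM in TNTSham. TNTProx1 1, 2 and 4 lay below the TNTSham range, and the log2 fold change was -0.20 ± 0.42 (SE; adjusted p = 0.874, edgeR). Krt25, a type I keratin of the same sheath, had 44.5, 107 and 239 CPM in TNTProx1, against 58.9, 151 and 282 CPM in TNTSham. Its groups overlapped over most of their ranges, with a fitted log2 change of -0.19 ± 0.43 (SE; adjusted p = 0.881, edgeR). Krt27, also type I, had 21.98, 50.7 and 134 CPM in TNTProx1, against 25.3, 55.9 and 121 CPM in TNTSham, and a fitted log2 change of 0.08 ± 0.45 (SE; adjusted p = 0.955, edgeR). Without TNTSham 2 the fitted changes of Krt71 and Krt25 turned to 0.09 each, and the class median of the inner root sheath turned to 0.08, against -0.21 with all libraries. Without TNTProx1 4, 5 and 6 the fitted changes were -0.58 for Krt71, -0.53 for Krt25 and -0.41 for Krt27, and the class median was -0.55.

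Most of these follicle keratins shared their highest and lowest libraries. TNTSham 2 was the highest TNTSham library for 7 of 7 inner root sheath keratins and 12 of 13 hair shaft keratins, and TNTSham 1 was the lowest for 12 of those 13. TNTProx1 5 was the highest TNTProx1 library for 6 of 7 and 11 of 13. TNTProx1 1 was the lowest of all 13 libraries for 5 of 7 and 11 of 13. Krt36 and Krt84 were also highest in TNTSham 2 and TNTProx1 5 within each group, but lowest in TNTSham 5 and TNTProx1 2. Summed over the class, the 13 hair shaft keratins were 1.14 to 1.60 times the inner root sheath keratins in TNTProx1 and 1.13 to 1.34 times in TNTSham. The inner root sheath share itself ranged from 0.0174 to 0.0837% of counts in TNTProx1 and from 0.0202 to 0.0987% in TNTSham. Krt36 and Krt84 were 4.66 to 26.9 times the sum of the other 13 in TNTProx1 and 9.38 to 29.4 times in TNTSham. Their proportion to the other 13 was therefore not fixed. Krt71 and Krt25 per kilobase stood at a ratio of 1.24 to 1.77 in TNTProx1 and 1.41 to 1.61 in TNTSham.

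The simple epithelial keratins, which line glands and single-layered epithelia, were scarce. Krt23, type I and the most abundant of the 6, had 8.33, 20.2 and 28.5 CPM in TNTProx1, against 16.6, 23.1 and 30.1 CPM in TNTSham (log2 fold change -0.23 ± 0.22 SE; adjusted p = 0.707, edgeR). Only TNTProx1 2 lay below the TNTSham range. Krt7, a type II keratin of glandular and ductal epithelia, had 6.45, 12.74 and 18.7 CPM in TNTProx1, against 10.97, 17.0 and 20.7 CPM in TNTSham (log2 fold change -0.39 ± 0.21 SE; adjusted p = 0.481, edgeR). Krt19, a type I keratin of the hair bulge and of simple epithelia, had 0.450, 2.10 and 6.30 CPM in TNTProx1, against 0.438, 1.79 and 5.20 CPM in TNTSham. Its groups overlapped over nearly the whole range (log2 fold change 0.44 ± 0.57 SE; adjusted p = 0.781, edgeR). Without TNTProx1 4, 5 and 6 the fitted changes were -0.62 for Krt23, -0.57 for Krt7 and 0.98 for Krt19.

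Krt18, the type I chain that pairs with Krt8, had the smallest p of the family. It had 0.386, 1.07 and 2.33 CPM in TNTProx1, against 0.196, 0.458 and 0.636 CPM in TNTSham. TNTProx1 3, 4, 5 and 6 lay above every TNTSham library, and TNTProx1 1 and 2 inside the TNTSham range. The log2 fold change was 1.47 ± 0.46 (SE; unadjusted p = 0.00646, edgeR adjusted p = 0.196), and 0.36 without TNTProx1 4, 5 and 6 (adjusted p = 0.678), and the alternatives gave adjusted p-values between 0.064 and 0.678. Krt8, the type II partner, shares 30.4% of its 36-base words with the pseudogene Krt8-ps and had a fitted log2 change of 0.33 ± 0.45 (SE; adjusted p = 0.797, edgeR), which turned to -0.03 without TNTProx1 4, 5 and 6. Krt20, a type I keratin of gut epithelium and Merkel cells, had 0.259, 0.413 and 0.653 CPM in TNTProx1, against 0, 0.263 and 0.477 CPM in TNTSham (log2 fold change 0.73 ± 0.57 SE; adjusted p = 0.645, edgeR), and 0.65 without those 3 libraries. Merkel cells also make Krt8, Krt18 and Krt20. Of 4 other markers of that cell, Sox2 and Piezo2 passed the count filter and Atoh1 and Isl1 did not, and the summed share of the 4 was 0.00211 to 0.00851% in TNTProx1 and 0.00393 to 0.00615% in TNTSham. That sum is nearly all Piezo2, with a mean of 48.6 CPM in TNTProx1 and 50.7 CPM in TNTSham and a log2 fold change of -0.06. Sox2 averaged 0.947 CPM in TNTProx1 and 0.600 CPM in TNTSham, with 4 of 6 TNTProx1 libraries above every TNTSham library (log2 fold change 0.65 ± 0.49 SE; adjusted p = 0.635, edgeR).

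Among the regional and other keratins, 5 of 10 tested members had fitted changes above 0 and 5 below. Krt24, a type I keratin of differentiated keratinocytes, had 178, 488 and 671 CPM in TNTProx1, against 440, 547 and 768 CPM in TNTSham. TNTProx1 2 and 3 lay below every TNTSham library (log2 fold change -0.27 ± 0.26 SE; adjusted p = 0.704, edgeR), and without TNTProx1 4, 5 and 6 the fitted change was -0.84. Krt79, a type II keratin of the hair follicle opening and the sebaceous duct, had 149, 368 and 458 CPM in TNTProx1, against 348, 463 and 919 CPM in TNTSham. TNTProx1 1 and 2 lay below the TNTSham range and TNTSham 4 was the highest library. Krt79 had a fitted log2 change of -0.66 ± 0.26 (SE; unadjusted p = 0.0235, edgeR adjusted p = 0.312), and -1.004 without TNTProx1 4, 5 and 6. Sebaceous gland markers, summed, took 0.0255 to 0.0388% of counts in TNTProx1 and 0.0279 to 0.0468% in TNTSham.

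Krt42, type I, repeated the pattern of Krt5, with 10.5, 45.8 and 79.5 CPM in TNTProx1, against 36.6, 43.0 and 58.8 CPM in TNTSham. TNTProx1 4, 5 and 6 lay above every TNTSham library and TNTProx1 1, 2 and 3 below every one. The fitted log2 change was 0.05 ± 0.35 (SE; adjusted p = 0.968, edgeR) and turned to -1.04 without TNTProx1 4, 5 and 6. Krt12, the type I keratin of the cornea, had 0.0257, 0.100 and 2.52 CPM in TNTProx1, against 0.253, 0.375 and 0.589 CPM in TNTSham. TNTProx1 4 and 6 were above the TNTSham range and the other 4 TNTProx1 libraries below it (log2 fold change 0.90 ± 0.82 SE; adjusted p = 0.693, edgeR). The fitted change of Krt12 turned to -2.39 without TNTProx1 4, 5 and 6 (unadjusted p = 0.000461, edgeR adjusted p = 0.0685), to -1.78 under voom with quality weights and to -1.38 with the TEC share as a covariate.

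TNTProx1 2 moved with many of these values. It was the lowest of all 13 libraries for 3 of 3 basal, 6 of 6 suprabasal and 4 of 4 wound-activated keratins, and for 25 of 51 keratins in all. Keratins took 1.16% of its counts, against 2.79 to 7.06% in the other TNTProx1 libraries and 4.50 to 6.39% in TNTSham. The 10 keratinocyte markers that are not keratins were also all lowest there, with a summed share of 0.138%, against 0.280 to 0.555% in the other TNTProx1 libraries and 0.414 to 0.553% in TNTSham. Dermal fibroblast markers, summed, took 6.51% of its counts and 9.91% in TNTProx1 3, against 3.53 to 5.36% in the other 4 TNTProx1 libraries and 2.58 to 4.88% in TNTSham. That sum is mostly Col1a1 and Col1a2, which reached 58100 and 40650 CPM in TNTProx1 3. In TNTProx1 2 and 3, Dcn (2177 and 2468 CPM) lay inside the TNTSham range of 1774 to 2536 CPM. Lum (1196 and 1418 CPM) lay above the TNTSham maximum of 1313 CPM only in TNTProx1 3. Pdgfra (330 and 279.8 CPM) lay above the TNTSham maximum of 257.4 CPM in both. Skeletal muscle markers took 0.377 to 1.10% in TNTProx1 and 0.814 to 1.41% in TNTSham. By gene, 5 of 5 dermal fibroblast markers had fitted changes above 0, against 2 of 10 keratinocyte, 2 of 5 melanocyte, 2 of 6 sebaceous gland, 1 of 8 skeletal muscle and 1 of 2 tested Merkel cell markers. With all libraries edgeR called none of them, while DESeq2 called 3 skeletal muscle markers, where 3.42% of all genes with an adjusted p were called. With the TEC share as a covariate edgeR called 1 dermal fibroblast, 1 keratinocyte and 1 skeletal muscle marker, where 2.38% of all genes were called. Without TNTProx1 1 edgeR called 2 skeletal muscle markers, in the fit with the most genes called among those leaving out 1 library. No share of all genes is given for that fit, so these 2 calls cannot be set against a background. The part of these other cell types in the keratin values was not tested. Without TNTProx1 2 the keratin medians were -0.05 for the family and 0.15, -0.21 and 0.50 for the basal, suprabasal and wound-activated classes. With a keratinocyte score as a covariate, taken from those 10 markers, the family median was -0.06 and edgeR called 0 keratins, where 0.743% of all genes were called, and gave 5 keratins an unadjusted p under 0.05, against 25.5% of all genes.

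Of the genes that anchor, accompany or switch on keratins, edgeR called none with all libraries and DESeq2 none. Voom with quality weights and edgeR with the TEC share as a covariate each called 1 epidermal transcription factor. Of all genes, voom called 2.5% and the fit with the TEC share 2.38%. Without TNTProx1 1, the left-out-library fit with the most genes called, edgeR called 1 filament anchor. The share of all genes called in that fit is not given here, so the count cannot be set against a background. Among 12 filament anchors and filaggrins, 3 had fitted changes above 0 and 9 below, with a median log2 fold change of -0.16. Dsp, which ties keratin filaments to desmosomes, had 1274, 3475 and 5632 CPM in TNTProx1, against 4032, 4834 and 6579 CPM in TNTSham (log2 fold change -0.43 ± 0.27 SE; adjusted p = 0.557, edgeR). Dst, which encodes the hemidesmosomal linker dystonin, had 669, 858 and 1591 CPM in TNTProx1, against 1121, 1308 and 1518 CPM in TNTSham (log2 fold change -0.46 ± 0.19 SE; adjusted p = 0.335, edgeR). TNTProx1 2, 3, 4 and 5 lay below the TNTSham range for both genes. Among 12 epidermal transcription factors, 4 were above 0 and 8 below, with a median of -0.12. Trp63, the p63 regulator of basal keratinocytes, had 69.7, 254 and 263 CPM in TNTProx1, against 234, 285 and 391 CPM in TNTSham (log2 fold change -0.47 ± 0.25 SE; adjusted p = 0.464, edgeR). Grhl1, a grainyhead factor of the epidermis, had 59.4, 143 and 156 CPM in TNTProx1, against 160, 174 and 204 CPM in TNTSham. All 6 TNTProx1 libraries lay below all 7 TNTSham libraries, as they did for 0.214% of all genes. Grhl1 was named for its small p, with a log2 fold change of -0.47 ± 0.18 (SE; unadjusted p = 0.0184, edgeR adjusted p = 0.287).

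Klf4, which drives barrier formation, lay on both sides of TNTSham as Krt5 did, with 86.1, 260 and 427 CPM in TNTProx1, against 210, 235 and 295 CPM in TNTSham (log2 fold change 0.05 ± 0.28 SE; adjusted p = 0.958, edgeR). TNTProx1 4, 5 and 6 were above the TNTSham range and TNTProx1 1, 2 and 3 below it.

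Among 9 wound-edge genes, 5 were above 0 and 4 below, with a median of 0.01. Sprr1a, a cornified envelope precursor induced in wounds, had 48.9, 134 and 183 CPM in TNTProx1, against 79.5, 152 and 368 CPM in TNTSham (log2 fold change -0.53 ± 0.34 SE; adjusted p = 0.57, edgeR). TNTSham 1, highest for the wound-activated keratins, was also the highest TNTSham library for 6 of these 9 genes. Among 14 hair follicle differentiation genes, 3 were above 0 and 11 below, with a median of -0.22. Foxn1, a regulator of hair keratins, had 8.20, 17.8 and 22.6 CPM in TNTProx1, against 15.3, 20.7 and 34.1 CPM in TNTSham (log2 fold change -0.43 ± 0.24 SE; adjusted p = 0.499, edgeR). TNTSham 2, highest for the follicle keratins, was the highest TNTSham library for 10 of these 14 genes. With TNTProx1 4, 5 and 6 left out, the medians were -0.56 for anchors, -0.72 for transcription factors, -0.84 for wound-edge genes and -0.43 for hair follicle genes.

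Setting the classes side by side, the fitted medians were -0.07 for basal, -0.40 for suprabasal, 0.26 for wound-activated, -0.21 for inner root sheath, -0.19 for hair shaft, 0.39 for simple epithelial and -0.11 for regional and other keratins, against -0.02 for all genes. These contrasts changed when TNTProx1 4, 5 and 6 were left out, with medians of -0.77 for basal, -0.81 for suprabasal, -0.58 for wound-activated, -0.55 for inner root sheath, -0.55 for hair shaft, 0.16 for simple epithelial and -0.77 for regional and other keratins, against -0.0012 for all genes. As a share of counts, basal keratins held 0.567% ± 0.296 in TNTProx1 (SD, n = 6) and 0.560% ± 0.0951 in TNTSham (SD, n = 7). Suprabasal keratins held 2.24% ± 1.19 in TNTProx1 and 2.89% ± 0.439 in TNTSham. Wound-activated keratins held 0.822% ± 0.534 in TNTProx1 and 0.688% ± 0.448 in TNTSham. Inner root sheath keratins held 0.0414% ± 0.0258 in TNTProx1 and 0.0481% ± 0.0270 in TNTSham. Hair shaft keratins held 0.676% ± 0.313 in TNTProx1 and 0.912% ± 0.230 in TNTSham. In each of these 5 classes the means differed by less than the SD within TNTProx1. Type II over type I keratins, summed per kilobase, stayed between 0.833 and 1.10 in TNTProx1 and between 0.843 and 0.969 in TNTSham.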

How the data were processed

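Total RNA of 13 tail samples was depleted of ribosomal RNA and made into stranded paired-end libraries, per the labels' protocols. The authors' deposited table holds raw read counts per Ensembl gene. The submitters' processing notes name fastp 0.20.1, HISAT2 2.2.1, featureCounts of Subread 2.0.2, DESeq2 1.34.0, R 4.1.2 and the build GRCm39. The strand setting and the handling of reads that fit several genes are not given in the sources. Symbols, gene classes and transcript lengths came from GENCODE M21, which matched 52081 of 55357 genes.

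Counts were tested in R 4.3.3 with edgeR 4.0.16 (TMM scaling, filterByExpr, quasi-likelihood F test on the group alone, Benjamini-Hochberg over 22876 genes, adjusted p under 0.05). The SE is the log2 fold change divided by the square root of F. CPM values use TMM-scaled library sizes, and CPM per kb divides them by the length of the principal transcript. DESeq2 1.42.0, limma 3.58.1 (voom with quality weights, and trend), 2 other scalings, 2 other filters, 2 covariates, protein-coding genes only and left-out libraries were the alternatives. The edgeR script was tested on simulated data, with changed genes drawn from all genes tested and not from keratins. Of 50 genes at each fold, it recovered 8 at 1.5-fold, 26 at 2-fold, 31 at 3-fold and 39 at 4-fold. With 29691929 to 48007392 counts per library, keratins under 1 CPM rest on few counts.

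Members, classes and gene lists were chosen with earlier results of these data known. Given in full were all basal and wound-activated keratins, Krt1, Krt2 and Krt10, the 3 most abundant members of each other class, and the 3 of smallest p in each direction. Of each other list, members came from the 2 most abundant and the 2 of smallest p. Krt8, Krt34, Krt78, Krt80, Krt32 and Krt86 were named after their values were seen.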

Additional observations from a re-analysis of the deposited data

Results flagged for a closer look

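Chance flags about 1 in 20 groups in a check of this kind, and 3 of the 68 group values looked at for the keratins were flagged. Each was a single TNTSham library far above the other 6, and no TNTProx1 library was flagged. Krt14 stood at 4449 CPM in TNTSham 1, where the next TNTSham library had 2703 CPM. Krt19 stood at 5.199 CPM in TNTSham 2, where the next had 2.096 CPM. Krt77 stood at 5.576 CPM in TNTSham 2, where the next had 3.704 CPM. TNTSham 1 was also the highest TNTSham library for the 4 wound-activated keratins, and TNTSham 2 for the follicle keratins.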

How the results depend on the processing

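The number of genes called over the whole table moved from 0 to 616 with DESeq2, 573 with limma's voom and quality weights, 545 with the TEC share and 170 with the keratinocyte score as a covariate, and 1 without a count filter. Leaving out 1 library gave 0 to 589 genes, the highest without TNTProx1 1, with 34 without TNTSham 5. Keratins called went to 3 with the TEC covariate and 2 with voom, and stayed at 0 elsewhere. Class medians moved by more than the SD within groups for regional and other keratins, to -0.69 (TEC), -0.77 (TNTProx1 4 to 6 left out) and -0.73 (voom), and for suprabasal keratins, to -0.89 (voom). By less than that SD, leaving out TNTProx1 4 to 6 took the median of basal keratins to -0.77 and of wound-activated ones to -0.58, and of inner root sheath and hair shaft keratins to -0.55 each. The basal share, TNTProx1 minus TNTSham, was 0.00727 percentage points and -0.237 without TNTProx1 4 to 6.

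These log2 fold changes turned sign. With the TEC covariate Krt14 was -0.56, Krt6a -0.17, Krt6b -0.22, Krt16 -0.56, Krt17 -0.47, Krt27 -0.34, Krt42 -0.70, Krt12 -1.38 and Krt86 -0.011. Without TNTProx1 4 to 6 Krt14 was -0.84, Krt6a -0.41, Krt6b -0.48, Krt16 -0.86, Krt17 -0.68, Krt27 -0.41, Krt42 -1.04, Krt12 -2.39, Krt8 -0.03 and Krt86 -0.02. With voom Krt14 was -0.62, Krt6a -0.66, Krt6b -1.09, Krt16 -1.24, Krt17 -0.41, Krt27 -0.017, Krt42 -0.73 and Krt12 -1.78. With limma's trend Krt14 was -0.12, Krt16 -0.26, Krt17 -0.13, Krt27 -0.010, Krt42 -0.24 and Krt12 -0.44. With the keratinocyte score Krt5 was 0.10, and with upper quartile scaling Krt42 was -0.0075. The causes were not tested.

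Leaving out 1 library moved Krt1 between -0.60 and 0.045, Krt5 between -0.20 and 0.15, Krt12 between -0.067 and 1.15, Krt14 between -4e-04 and 0.43, Krt16 between -0.054 and 0.56, Krt17 between -0.11 and 0.26, Krt19 between -0.0089 and 0.90, Krt25 between -0.50 and 0.087, Krt27 between -0.31 and 0.38, Krt42 between -0.17 and 0.25 and Krt71 between -0.53 and 0.089, and Krt86 turned to -0.14 without TNTProx1 5. DESeq2, its size factors, both count filters and protein-coding genes alone turned none of the named keratins. The minimum of 1 CPM in 6 libraries left no value for 3 of them. No paired analysis was possible because the replicate numbers only name the libraries.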

Other observations

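Krt9 and Krt222, both scarce, were picked after their values were seen. Trps1 was among the most abundant hair follicle differentiation genes, and its split was singled out after its values were seen. Krt9, the type I keratin of foot pads, had 8.20 CPM in TNTProx1 6 and at most 0.80 CPM in the other 5 TNTProx1 libraries, against 0.702 to 6.51 CPM in TNTSham. By edgeR the log2 change was -0.62 ± 0.92 (SE; adjusted p = 0.813), and -2.87 without TNTProx1 4, 5 and 6. Krt222, a type I keratin, had 0 to 0.849 CPM in TNTProx1, against 0.818 to 1.93 CPM in TNTSham, with 5 of 6 TNTProx1 libraries below the TNTSham range. Here edgeR gave -1.01 ± 0.56 on the log2 scale (SE; adjusted p = 0.496), and -0.70 without those 3 libraries. Trps1, a zinc finger regulator of the hair follicle, split the TNTProx1 libraries the other way from Krt5. It had 309 to 375 CPM in TNTProx1 1, 2 and 3 and 224 to 232 CPM in TNTProx1 4, 5 and 6, against 246 to 332 CPM in TNTSham.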
